A study of Mus musculus with 4 samples.

Results

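The adult globin genes Hba-a1, Hba-a2, Hbb-bs and Hbb-bt and their red cell partner Alas2 were followed through RNA-seq of lung ILC2s as a trace of red blood cells. They were taken by gene name from a list of 6 genes chosen by their FPKM values in these same libraries and by their place in red cells, so their differences between groups are described and not tested. Of the 6 listed genes, 5 had a row among the 55401 gene models, and all 5 reached the mean of 1 FPKM needed for a gene to enter the comparison. The remaining listed gene, another red cell partner, was not analysed here. Group 2 innate lymphoid cells (ILC2s) are tissue lymphocytes that release type 2 cytokines after alarm signals. Each sample held 500 purified ILC2s of C57BL/6 mouse lung, kept for 6 h with stimulus. In 2 samples the stimulus was IL-33, an epithelial alarm cytokine, plus Ang II (angiotensin II), a peptide hormone that raises blood pressure, and in the other 2 samples it was IL-33 alone. IL-33 was thus present in every sample, no unstimulated sample was analysed here, and nothing in the labels tells if the samples are of different animals or cultures, so that any p below measures a spread that may be technical.

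Haemoglobin is a tetramer of alpha and beta globin chains that each hold a haem group, and globin transcripts dominate the RNA of red cell precursors and of reticulocytes, the young red cells that still carry RNA. Alas2 encodes the erythroid form of aminolevulinate synthase, which starts haem synthesis in red cell precursors. In tissue that was not perfused, blood remains in the vessels, and globin transcripts are widely used as a sign of it. Lymphocytes are not known as a source of these genes, although low globin expression has been described in some lung epithelial cells and macrophages.

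Levels are given in FPKM, which divides fragment counts by transcript length and library size and which the authors deposited. No counts came with them, so the depth of the libraries is not known directly. For the comparison of libraries below it was estimated at 11900000 fragments, from how often genes between 0.02 and 1 FPKM times kilobases were listed at 0 in just 1 of the IL-33 libraries, under Poisson sampling. This estimate comes from the same pair that it is applied to. FPKM summed to between 394808 and 426140 in the IL-33 plus Ang II libraries and to between 430980 and 431014 in the IL-33 libraries. Across the 9215 genes tested, log2(FPKM + 1) correlated at Pearson r = 0.568 between the IL-33 plus Ang II libraries and at r = 0.994 between the IL-33 libraries, a correlation across genes, which are not replicates. At an abundance of 1 to 32 FPKM times kilobases, the spread between the IL-33 plus Ang II libraries was 7.80 times the counting noise at that depth by the median and 7.53 times by the root mean square, and that between the IL-33 libraries was 1.05 times and 1.65 times the same noise. The typical gene thus differed between the IL-33 libraries by about the sampling noise. For this reason the mean of the IL-33 libraries entered the fit as 1 sample. These multiples of the noise cover only genes above 0 in both libraries of a pair. At the same abundance, 2364 of 6205 genes (38.1%) were at 0 in just 1 of the IL-33 plus Ang II libraries. In the IL-33 pair 27 of 3918 genes (0.69%) were. The 18 ILC2 genes summed to 8710 and 7337 FPKM in the IL-33 plus Ang II libraries and to 6270 and 6300 FPKM in the IL-33 libraries, and the list's Il5 and Thy1 were at or near 0 in all 4 libraries.

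The 2 alpha genes lie in tandem on chromosome 11 of mm10, Hba-a1 at 32283511 to 32284465 and Hba-a2 at 32296489 to 32297298, both on the plus strand. The 2 adult beta genes lie on chromosome 7, Hbb-bs at 103826534 to 103828096 and Hbb-bt at 103812524 to 103813996, both on the minus strand. Each of the 4 has 3 exons in the GENCODE M21 model used here. Alas2 lies on chromosome X at 150547375 to 150570638 on the plus strand, with 11 exons. How far copies can be told apart bears on every value below. In the GENCODE transcripts, the 429 coding bases of Hba-a1 and Hba-a2 were identical but for C381T (Hba-a1 base first, counted from 1 at the A of the start codon), and the 444 coding bases of Hbb-bs and Hbb-bt were identical but for C417T (Hbb-bs base first). The stretches around these positions are shown with the differing base in capitals:
Hba-a1: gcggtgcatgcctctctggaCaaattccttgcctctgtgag
Hba-a2: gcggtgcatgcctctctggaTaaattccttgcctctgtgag
Hbb-bs: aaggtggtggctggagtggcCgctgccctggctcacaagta
Hbb-bt: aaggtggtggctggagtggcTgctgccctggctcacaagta
Of all 50-base windows of the spliced Hba-a1 transcript, 67.5% also occurred in that of Hba-a2, and 86.9% of those of Hba-a2 occurred in that of Hba-a1. For the beta pair these shares were 65.8% of the Hbb-bs windows and 58.3% of the Hbb-bt windows. Between the alpha and the beta transcripts 0 windows were shared in any of the 4 pairings. The division of fragments within the alpha pair and within the beta pair therefore depends on the authors' counting. Between alpha and beta, no window of this length could be assigned to the wrong sum. How fragments shared within a pair were counted is not known, and it could change the alpha sum and the beta sum by different amounts.

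The 250 bases upstream of the RefSeq start sites of the 5 genes were also compared (build GRCm38.p6). Capitals mark the motifs searched on both strands, the letters CCAAT of a promoter box bound by general factors, the letters CACCC of a box bound by Krüppel-like factors, the letters GATAA of the erythroid GATA factor motif, and the letters TATAA of the element that places the start of transcription:
Hba-a1 (chr11:32283422-32283671, plus strand): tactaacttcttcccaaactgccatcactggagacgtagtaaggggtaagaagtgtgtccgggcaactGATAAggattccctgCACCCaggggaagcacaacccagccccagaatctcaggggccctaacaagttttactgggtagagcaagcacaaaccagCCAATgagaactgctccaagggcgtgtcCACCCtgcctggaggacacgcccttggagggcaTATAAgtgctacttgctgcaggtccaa
Hbb-bs (chr7:103827929-103828178, minus strand): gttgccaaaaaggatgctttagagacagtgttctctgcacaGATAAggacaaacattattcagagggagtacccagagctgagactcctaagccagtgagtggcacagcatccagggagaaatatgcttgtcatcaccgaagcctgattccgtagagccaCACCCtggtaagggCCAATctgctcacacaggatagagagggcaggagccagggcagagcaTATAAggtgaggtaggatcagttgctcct
Hbb-bt (chr7:103813924-103814173, minus strand): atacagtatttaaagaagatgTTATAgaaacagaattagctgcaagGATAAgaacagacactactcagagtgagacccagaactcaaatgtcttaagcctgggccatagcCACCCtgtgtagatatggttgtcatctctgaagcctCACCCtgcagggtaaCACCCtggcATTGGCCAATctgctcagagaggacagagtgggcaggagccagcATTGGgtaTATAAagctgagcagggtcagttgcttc
Alas2 (chrX:150547167-150547416, plus strand): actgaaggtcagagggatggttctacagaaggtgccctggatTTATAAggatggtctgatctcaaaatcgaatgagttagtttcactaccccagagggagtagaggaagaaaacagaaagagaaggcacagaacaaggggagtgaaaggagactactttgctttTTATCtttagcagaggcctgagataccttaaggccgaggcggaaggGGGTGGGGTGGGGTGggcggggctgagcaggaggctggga
The Hba-a2 window matched that of Hba-a1 at 247 of 247 aligned bases and is not printed, while the windows of Hbb-bs and Hbb-bt matched at 127 of 249 when aligned without gaps. All 4 motifs occurred upstream of each globin gene. In Hbb-bs the Krüppel-like factor box began at position -90 from the start site, the general factor box at -76 and the TATA motif at -29. In Hba-a1 the general factor box began at -88, a Krüppel-like factor box nearer the gene at -60 and the TATA motif at -27. Upstream of Alas2, 3 of the 4 motifs occurred and the general factor box did not. Its TATA motif, which reads on both strands and so was found as an overlapping pair, began at -208 and -207, while 3 adjoining Krüppel-like factor boxes on the other strand lay between -40 and -26. Among 32851 RefSeq windows of the same length, the general factor box occurred in 33.8%, the Krüppel-like factor box in 52.0%, the GATA motif in 22.6%, the TATA motif in 22.8% and all 4 together in 0.97%. These are letter matches and not shown to be sites, and a relation of the motifs to the difference between groups was not tested. The GENCODE models of the 5 genes begin farther upstream, within these windows, so parts of them may be transcribed.

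Alpha globin transcripts were the most abundant of the members in the IL-33 libraries and differed most between groups. Hba-a2 was measured at 1254 and 482 FPKM in the IL-33 plus Ang II libraries, against 9432 and 9564 FPKM in the IL-33 libraries. Hba-a1 was measured at 1115 and 365 FPKM in the IL-33 plus Ang II libraries, against 8966 and 8784 FPKM in the IL-33 libraries. For both genes the groups did not overlap, and Ang II replicate 2 was the lowest library. Of the 9215 genes tested, 33.5% were likewise lower in both Ang II libraries than in both IL-33 libraries. The log2 difference, on the log2(FPKM + 1) scale, was -3.61 for Hba-a2 (SE 0.89) and -3.80 for Hba-a1 (SE 1.04), from 2 IL-33 plus Ang II libraries against the lone IL-33 sample. Each SE here and below is the moderated value of the fit. It draws on the spread of all genes tested and not only on that of the gene named. The mean level of Hba-a1 was 740 ± 530 FPKM with Ang II (SD, n = 2), 12.0-fold below that with IL-33 alone. The fold depended on the library, at 7.96-fold for Ang II replicate 1 and 24.3-fold for Ang II replicate 2. Hba-a2 was the 3rd most abundant gene model in both IL-33 libraries and Hba-a1 the 5th, and they ranked 34 and 40 in Ang II replicate 1 and 112 and 159 in Ang II replicate 2. Since these are bulk samples, fewer red cells, less globin RNA per cell and a technical difference between libraries cannot be told apart. The source of the transcripts was not tested.

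Beta globin transcripts were lower with Ang II as well, by a smaller factor. Hbb-bs was measured at 997 and 499 FPKM in the IL-33 plus Ang II libraries, against 4422 and 4307 FPKM in the IL-33 libraries. Hbb-bt was measured at 456 and 238 FPKM in the IL-33 plus Ang II libraries, against 2305 and 2268 FPKM in the IL-33 libraries. Again the groups did not overlap. As above, 33.5% of the 9215 genes tested were lower in both Ang II libraries than in both IL-33 libraries. Ang II replicate 2 was lower than replicate 1, by 2.00-fold for Hbb-bs and 1.92-fold for Hbb-bt. The log2 difference was -2.63 for Hbb-bs (SE 0.65) and -2.79 for Hbb-bt (SE 0.62). Between the IL-33 libraries the 4 globin genes differed little, with ratios of replicate 1 to replicate 2 from 0.986 to 1.03.

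Alas2 was far rarer than the globins and was also lower with Ang II. Its level was 8.66 and 6.80 FPKM in the IL-33 plus Ang II libraries, against 21.7 and 20.1 FPKM in the IL-33 libraries. The groups did not overlap, a position again held by 33.5% of the 9215 genes tested. The mean FPKM of Alas2 was 2.70-fold lower with Ang II, the least of the 5 genes. Its log2 difference, on the separate log2(FPKM + 1) scale, was -1.33 (SE 0.54), also the least. Alas2 kept 41.5% and 32.6% of its IL-33 level in the separate Ang II libraries, where Hba-a1 kept 12.6% and 4.12%.

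**Figure D1:**
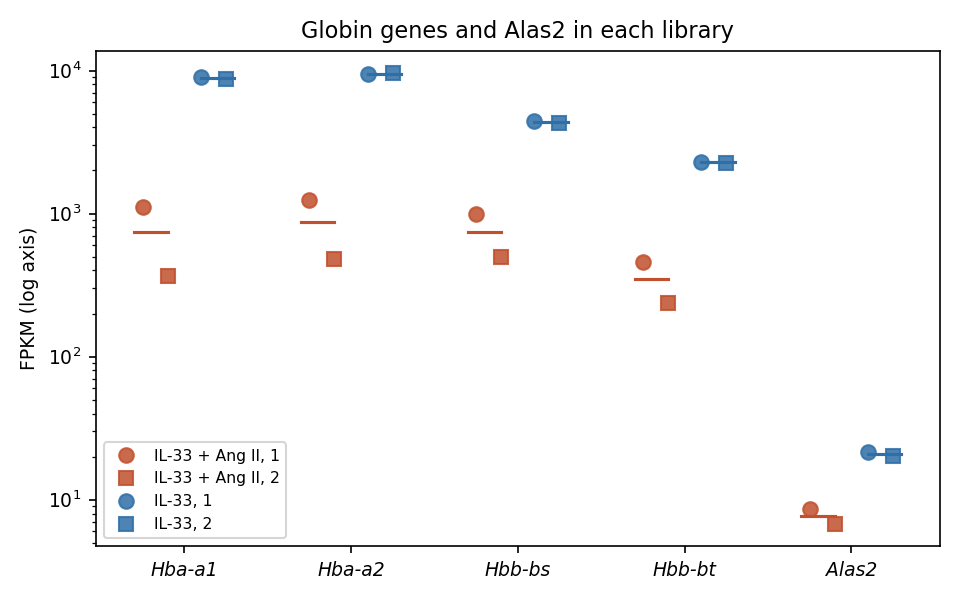
FPKM (log axis) of the 4 globin genes and Alas2 in each library, with IL-33 plus Ang II in orange and IL-33 alone in blue, circles for replicate 1, squares for replicate 2 and a bar at each group mean. The groups do not overlap for any of the 5 genes, and 33.5% of the 9215 genes tested were likewise lower in both Ang II libraries. The IL-33 plus Ang II libraries lie farther apart than the IL-33 libraries, whose points nearly coincide.

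All 5 genes were lower in both IL-33 plus Ang II libraries than in both IL-33 libraries, a position held by 33.5% of the 9215 genes tested. Because the list was drawn up from these libraries, nothing is read from that count. In the fit across all genes (limma, Benjamini-Hochberg adjustment, two-sided) 0 genes passed an adjusted p of 0.05, which is 0% of those tested. The smallest adjusted p was 0.174, and 1253 genes had an unadjusted p under 0.05. With 2 libraries against 2, an exact permutation test of a single value cannot go below p = 0.333. The median log2 difference of all tested genes was -0.004, and 4.33% of them had a lower value than Hba-a1, 12.5% a lower value than Hbb-bs and 26.5% a lower value than Alas2. Differences of this size were common among low genes and rare among abundant ones. Of 111 tested genes that averaged 500 FPKM or more, a limit chosen after the values were seen, 5 had a log2 difference of -2 or below, namely the 4 globin genes and Gm28437 (-2.44). The median of those 111 genes was 0.02. That average was taken over all libraries, so a gene could enter on its IL-33 level alone. Hbb-bt did so, with a mean of 347 FPKM with Ang II and 2286 FPKM with IL-33 alone. Since the members were listed with this contrast known, nothing is read from their place among the 111 genes.

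**Figure D2:**
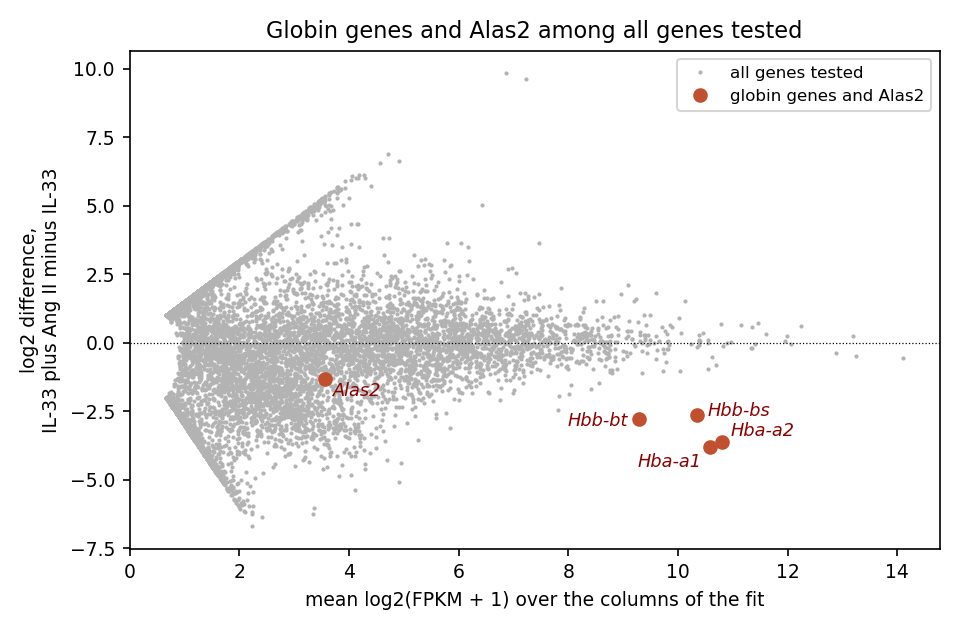
Log2 difference on the log2(FPKM + 1) scale (IL-33 plus Ang II minus IL-33) against mean log2(FPKM + 1) over the 3 columns of the fit, for the 9215 genes tested in grey and the 5 members in orange. The 4 globin genes lie at -2.63 to -3.80 among abundant genes that otherwise scatter near 0, while Alas2, at -1.33, lies within the cloud of less abundant genes. The members were listed with these differences known.

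Summed, the 4 globin genes reached 3822 and 1584 FPKM in the IL-33 plus Ang II libraries, against 25124 and 24923 FPKM in the IL-33 libraries. That was 0.897% and 0.401% of the FPKM sum with Ang II, against 5.83% and 5.78% with IL-33 alone. The log2 ratio of group means was -3.21, or 9.26-fold lower with Ang II. Without the globins, the FPKM sums were 422318 and 393223 in the IL-33 plus Ang II libraries and 405856 and 406091 in the IL-33 libraries, so that their removal changed the order of the first Ang II library and the IL-33 libraries. Rescaling all libraries to the same sum without globins gave a log2 ratio of -3.24.

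The composition of the globin transcripts also differed between libraries. The alpha sum was 1.63 and 1.15 times the beta sum in the IL-33 plus Ang II libraries, against 2.74 and 2.79 times in the IL-33 libraries. Alpha chains thus made up 62.0% and 53.5% of globin FPKM with Ang II and 73.2% and 73.6% with IL-33 alone. The alpha sum was 11.4-fold lower with Ang II (7.76-fold for replicate 1 alone and 21.7-fold for replicate 2 alone). The beta sum was 6.07-fold lower (4.58-fold and 9.03-fold). The library with the least globin had the lowest alpha to beta ratio. This ratio does not depend on the scaling of a library, and it was not tested. Its level can depend on how the authors counted fragments that the copies of a pair share. Within the alpha pair, Hba-a1 was measured at 0.889 and 0.758 of Hba-a2 in the IL-33 plus Ang II libraries and at 0.951 and 0.918 of it in the IL-33 libraries. Within the beta pair, Hbb-bs was measured at 2.19 and 2.10 times Hbb-bt in the IL-33 plus Ang II libraries and at 1.92 and 1.90 times it in the IL-33 libraries. These ratios within pairs rest on the parts of the transcripts that the copies do not share, which lie almost wholly outside the coding sequence. Per 1000 FPKM of globin there were 2.27 and 4.29 FPKM of Alas2 in the IL-33 plus Ang II libraries, against 0.862 and 0.805 FPKM in the IL-33 libraries. Relative to globin, Alas2 was therefore highest where globin was lowest, which follows for any gene that differed less than globin between libraries.

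**Figure D3:**
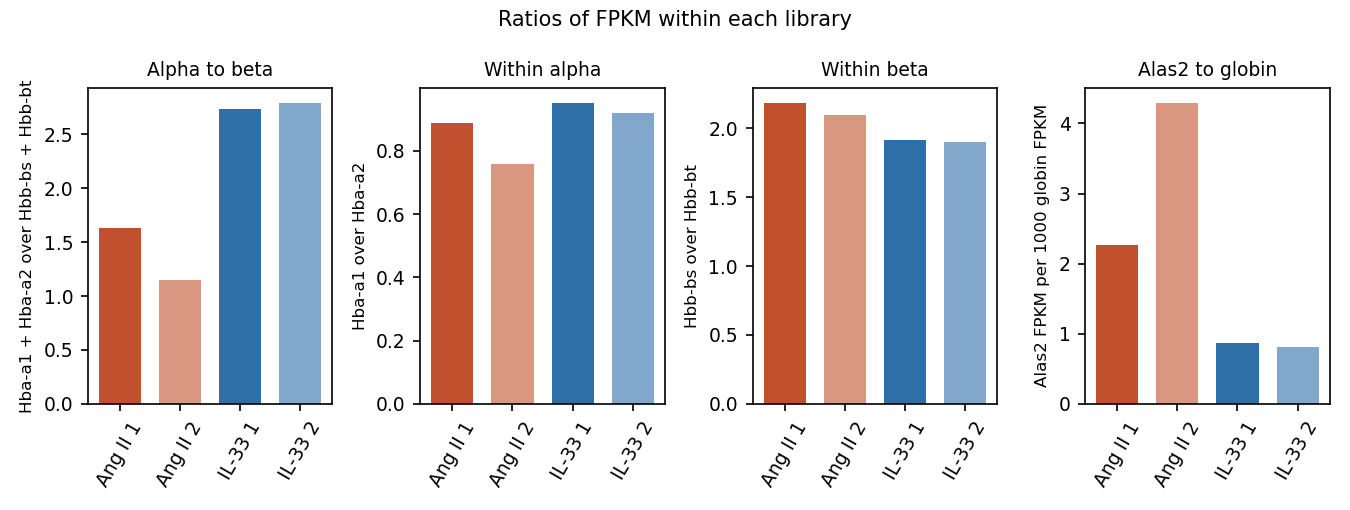
Ratios of FPKM within each library, with the IL-33 plus Ang II libraries in orange left of the IL-33 libraries in blue, replicate 2 in the paler shade, and every axis starting at 0. The alpha to beta ratio was 1.63 and 1.15 with Ang II against 2.74 and 2.79 with IL-33 alone, while Alas2 per 1000 globin FPKM was 2.27 and 4.29 against 0.862 and 0.805.

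Globins other than the adult haemoglobin genes were nearly absent. Of 12 names listed, 10 had a row, and those without a row were further names of adult beta globin genes. Of the 10, 7 were listed at 0 in all 4 libraries, among them Hba-x and Hbb-bh0, an embryonic alpha-like and a beta-like gene. Hbq1b, a theta globin gene, stood at 0 and 0.11 FPKM with Ang II and at 0 and 0.38 FPKM with IL-33 alone. Only Cygb, the gene of cytoglobin, which is made outside red cells, exceeded 1 FPKM, at 7.27 and 0 FPKM with Ang II and listed at 0 in both IL-33 libraries.

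In the haem synthesis list, in which Alas2 is not counted, the tested genes overlapped between groups or were lower with Ang II. Of its 14 genes 11 were tested, and 0 were above and 5 below in both IL-33 plus Ang II libraries, where 24.4% and 33.5% of all tested genes were. The list's median log2 difference was -1.04, against -0.004 over all genes tested, and none of its genes passed the adjusted threshold (0 of 11). Alas1, the form of the enzyme that all tissues use, stood at 52.8 and 13.9 FPKM with Ang II against 54.95 and 57.1 FPKM with IL-33 alone. Urod, which encodes a later enzyme of the pathway, was listed at 0 in Ang II replicate 1 and stood at 76.8 FPKM in replicate 2, against 34.8 and 37.4 FPKM in the IL-33 libraries. Ppox, for the step before the last, went the other way within the Ang II pair, at 37.9 and 0 FPKM, against 12.3 and 12.5 FPKM in the IL-33 libraries. Slc25a38, which encodes the mitochondrial glycine carrier of the pathway, did separate the groups, at 18.0 and 13.1 FPKM with Ang II against 33.5 and 32.1 FPKM with IL-33 alone. Glrx5, for an iron-sulphur cluster protein, overlapped, at 59.4 and 22.1 FPKM with Ang II against 26.2 and 24.8 FPKM with IL-33 alone.

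Genes of the red cell membrane and its skeleton were mostly at trace level. Of 19 genes, 15 were below 1 FPKM in every library and 4 were tested, of which 1 was above and 3 below in both Ang II libraries, positions held by 24.4% and 33.5% of all tested genes (median log2 difference -2.03). Slc4a1, which encodes the anion exchanger band 3, stood at 0.50 FPKM in each IL-33 plus Ang II library, against 0.46 and 0.49 FPKM in the IL-33 libraries. It was not lower with Ang II. The 4 tested members are also expressed outside the red cell lineage. Among them Slc2a1, the gene of the glucose transporter GLUT1, stood at 0.13 and 36.9 FPKM with Ang II against 58.5 and 53.0 FPKM with IL-33 alone. Gypc, for glycophorin C, stood at 0.13 and 33.8 FPKM with Ang II against 47.4 and 51.8 FPKM with IL-33 alone. Kcnn4, for a calcium-gated potassium channel, was higher with Ang II, at 18.8 and 39.9 FPKM against 8.91 and 9.24 FPKM. Epb41, for the skeletal protein 4.1, stood at 0.34 and 3.17 FPKM with Ang II against 4.16 and 3.68 FPKM with IL-33 alone.

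Among 18 measured genes of red cell enzymes and late maturation, 11 were tested, with 4 above and 2 below in both Ang II libraries (against 24.4% and 33.5% of all tested genes) and a median log2 difference of 0.39. Bpgm, which encodes the red cell enzyme that makes the haemoglobin ligand bisphosphoglycerate, stood at 3.10 and 2.22 FPKM with Ang II against 2.12 and 2.05 FPKM with IL-33 alone. It was chosen after its values were seen, and it was not lower with Ang II. By the rule of highest mean level, the list is led by genes that other cells share. Isg20, an interferon-inducible exonuclease gene, stood at 339 and 647 FPKM with Ang II against 323 and 316 FPKM with IL-33 alone, and Ube2l6, for an ISG15-conjugating enzyme, at 119.6 and 316 FPKM against 147 and 150 FPKM. Bnip3l, whose product clears mitochondria in maturing red cells, stood at 95.9 and 38.8 FPKM with Ang II against 34.4 and 35.0 FPKM with IL-33 alone. Prdx2, an antioxidant gene abundant in red cells, was level, at 43.9 and 40.3 FPKM with Ang II against 42.9 and 44.0 FPKM. Mkrn1, for a ubiquitin ligase, was lower in both, at 27.1 and 9.93 FPKM with Ang II against 57.8 and 58.1 FPKM.

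Of 13 erythroid and haem-responsive transcription factor genes, 8 were below 1 FPKM in every library. Of the 5 tested, 1 was above and 1 below in both Ang II libraries, against 24.4% and 33.5% of all tested genes (median log2 difference 0.78). Klf1, the erythroid Krüppel-like factor gene whose product activates the adult beta globin genes, was listed at 0 in all 4 libraries. Gata1, whose product binds GATA motifs of red cell genes, stood at 0.03 and 0.32 FPKM with Ang II and at 0.07 and 0 FPKM with IL-33 alone. These 2 were chosen after their values were seen. Nfe2, for a subunit of an erythroid and megakaryocyte factor, stood at 16.0 and 0.12 FPKM with Ang II against 0.29 and 0.11 FPKM. Lmo2, for an adaptor of erythroid factor complexes, stood at 11.9 and 4.28 FPKM with Ang II against 2.82 and 3.42 FPKM. Klf3 overlapped between groups, at 0.06 and 5.26 FPKM with Ang II against 2.64 and 2.88 FPKM, and Bach1, for a haem-sensing repressor, stood at 3.71 and 0 FPKM against 0.22 and 0.30 FPKM. Nfe2l2, for the antioxidant regulator NRF2, was lower in both Ang II libraries, at 63.3 and 35.4 FPKM against 70.2 and 70.7 FPKM.

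Of 12 genes for haem breakdown and iron storage, 8 were tested, with 2 above and 4 below in both Ang II libraries, against 24.4% and 33.5% of all tested genes (median log2 difference -0.33). Hmox1, which encodes the inducible haem oxygenase, lay opposite to the globins, at 291 and 205 FPKM with Ang II against 76.5 and 74.9 FPKM with IL-33 alone. Hmox2, the constitutive form, stood at 45.4 and 99.8 FPKM with Ang II against 43.6 and 40.9 FPKM. The ferritin genes were among the most abundant of all, with Ftl1 at 11270.4 and 6783 FPKM with Ang II against 12257 and 12275 FPKM, and Fth1 at 2329.96 and 2687 FPKM against 2830.2 and 2831 FPKM. Blvra, for biliverdin reductase, overlapped between groups, at 19.7 and 31.6 FPKM with Ang II against 22.8 and 23.6 FPKM. No gene of this list or of the red cell lists above passed the adjusted threshold (0 in each by limma).

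Transcripts of other cells that can accompany lung lymphocytes moved to different degrees, and their part in the globin difference was not tested. Platelet genes summed to 26.9 and 17.2 FPKM with Ang II against 27.5 and 27.4 FPKM with IL-33 alone. Of 8 tested platelet genes 0 were above and 2 below in both Ang II libraries, against 24.4% and 33.5% of all tested genes (median log2 difference -0.06). The chemokine gene Ppbp overlapped, at 8.26 and 5.64 FPKM with Ang II against 6.27 and 5.27 FPKM, as did Pf4, at 3.62 and 2.82 FPKM against 3.56 and 4.64 FPKM. Neutrophil genes summed to 64.7 and 40.7 FPKM with Ang II against 227 and 224 FPKM with IL-33 alone, and 4 of 4 tested were below in both Ang II libraries (the share over all tested genes was 33.5%), with a median of -1.80. Retnlg, 1 of these and chosen after its values were seen, was nearly level, at 3.01 and 2.65 FPKM with Ang II against 3.02 and 3.20 FPKM. The calprotectin genes S100a8 (34.2 and 18.9 FPKM with Ang II against 163 and 157 FPKM) and S100a9 (24.2 and 16.9 FPKM against 42.0 and 40.5 FPKM) made up most of it, while the granule genes Mpo and Elane were listed at 0 in all 4 libraries. Lung epithelial genes summed to 98.0 and 213 FPKM with Ang II against 409.8 and 399.7 FPKM, with 1 of 8 tested above and 6 below, against 24.4% and 33.5% of all tested genes (median -2.35). Its leading genes were Scgb1a1 (76.9 and 133 FPKM with Ang II against 256 and 244 FPKM) and Sftpc (3.17 and 43.2 FPKM against 80.5 and 81.5 FPKM), and Sftpb, Sftpd, Krt8 and Krt18 were listed at 0 throughout. Within the Ang II pair this list was higher in replicate 2, where globin was lower. Macrophage and other myeloid genes summed to 2333 and 1271 FPKM with Ang II against 2476 and 2435 FPKM, with 3 of 9 tested above and 5 below, against 24.4% and 33.5% of all tested genes (median -0.86). Lyz2 led them, at 1016 and 683 FPKM with Ang II against 1699.6 and 1668 FPKM, followed by Chil3, at 696 and 158 FPKM against 212 and 209.7 FPKM, and Ear1 was listed at 0 throughout. Endothelial genes summed to 0.28 and 9.08 FPKM with Ang II against 30.7 and 30.5 FPKM. That sum came mostly from Cldn5, at 0.05 and 0 FPKM with Ang II against 29.6 and 29.3 FPKM, and Pecam1, at 0.11 and 9.08 FPKM against 1.14 and 1.15 FPKM. Of 2 tested endothelial genes 0 were above and 1 was below, against 24.4% and 33.5% of all tested genes (median -2.12), and Cdh5, Kdr, Tie1 and Ramp2 were listed at 0 in all 4 libraries. Of 16 tested ILC2 genes 5 were above and 1 was below, against 24.4% and 33.5% of all tested genes (median 0.16), led by Calca (3532 and 3138 FPKM with Ang II against 1989 and 1995 FPKM) and Csf2 (1819 and 731 FPKM against 913 and 891 FPKM).

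**Figure D4:**
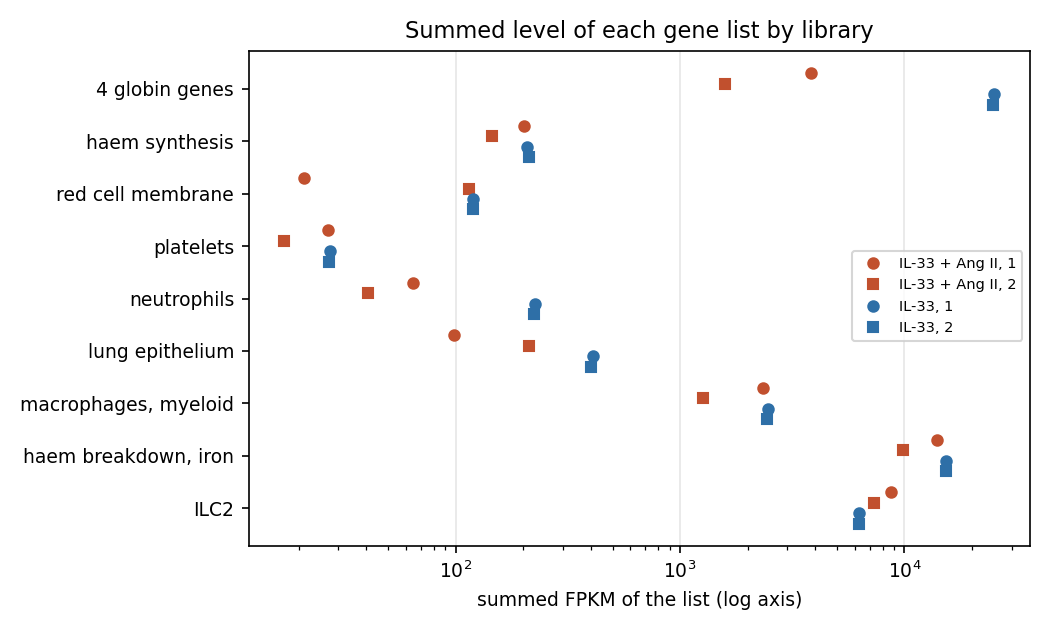
Summed FPKM (log axis) of the 4 globin genes and of 8 of the gene lists in each library, with IL-33 plus Ang II in orange drawn above IL-33 alone in blue, circles for replicate 1 and squares for replicate 2. The lists are those of haem synthesis, red cell membrane, platelets, neutrophils, lung epithelium, myeloid cells, haem breakdown and ILC2s, and the endothelial and 3 other red cell lists are not drawn. The globin sum lies at 3822 and 1584 FPKM with Ang II against 25124 and 24923 FPKM. Platelet genes lie at 26.9 and 17.2 FPKM against 27.5 and 27.4 FPKM, and neutrophil genes at 64.7 and 40.7 FPKM against 227 and 224 FPKM.

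The genes whose levels ran most like the globins were found among 2642 other genes averaging 20 FPKM or more, by the Euclidean distance of centred log2(FPKM + 1) profiles over the 4 libraries to the mean globin profile. The nearest was S100a4, for a calcium-binding protein, at 38.4 and 19.0 FPKM with Ang II against 243 and 235 FPKM with IL-33 alone (distance 0.211 log2 units). Next came Ptbp1, for an RNA-binding splicing regulator, at 12.0 and 5.24 FPKM against 70.8 and 69.3 FPKM (0.257). S100a8 came after these (0.667), followed by the mitochondrial tRNA gene mt-Tl1 at 3.56 and 2.58 FPKM with Ang II against 46.1 and 50.7 FPKM (0.750), and by Nop56, for a nucleolar protein, at 23.7 and 10.6 FPKM against 84.3 and 85.9 FPKM (0.861). The globin genes themselves lay between 0.417 (Hba-a2) and 0.647 (Hba-a1) from their own mean profile, and Alas2 at 1.99. With 4 libraries, and the IL-33 pair nearly alike, such likeness rests on the difference between groups and on the order of the Ang II libraries.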

How the data were processed

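RNA-seq libraries came from purified lung ILC2s, with low-input cDNA amplified by PCR, per the labels' protocols. The authors deposited FPKM per gene with 2 decimals, per the file headers. HISAT, StringTie, edgeR and mm10 are named in the submitters' processing notes, with no version or role given. PCR copies were not removable without molecular identifiers, and annotation differences could move levels per length.

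Here, IL-33 libraries were averaged into 1 sample and genes averaging 1 FPKM or more over 3 columns were fitted on log2(FPKM + 1) with limma 3.58.1 in R 4.3.3 (trend, two-sided, Benjamini-Hochberg, threshold 0.05, 1 residual degree of freedom). The fit was tested on simulated data. Members and the 12 gene lists were chosen with earlier results of these data known. By rule, the text names the members, up to 5 most abundant genes of each red cell list, the 2 most abundant of each other list with markers at 0, and the 5 nearest profiles. Bpgm, Klf1, Gata1, Retnlg and Gm28437 fall outside it and were chosen after their values were seen. Sequences are from RefSeq (GRCm38.p6) and GENCODE M21. Some items of the gene lists are not reported here by name. Alternatives covered pseudocount, filter, scaling, replicates and left-out libraries.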

Additional observations from a re-analysis of the deposited data

How the results depend on the processing

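The log2 differences of the 5 genes stayed below 0 under all 10 alternatives. These included a pseudocount of 0.1 FPKM (-3.80 to -1.43), a minimum mean of 5 FPKM, no filter, rescaling without globins and each library left out. Filters and replicate settings leave a gene's own difference nearly unchanged by construction. Since the groups did not overlap, another pseudocount or a left-out library could not reverse a sign either. Only the rescaling could have done so, so the unchanged signs show little. Each difference moved by less than the SD of the Ang II libraries. With an Ang II library left out this holds by arithmetic, so it shows nothing there. With Ang II replicate 1 left out the differences ran from -4.60 to -1.49, and with replicate 2 left out from -2.99 to -1.18. The log2 ratio of summed globin ran from -3.98 to -2.71 over the libraries left out, the share from -5.41 to -4.91 percentage points, and the alpha to beta ratio from -1.61 to -1.13 (IL-33 plus Ang II minus IL-33). The count of genes passing the adjusted threshold was 0 under the main setting and 1665 (486 higher, 1179 lower) when the IL-33 libraries entered as 2 replicates, which adds a sample whose spread is far below that of the Ang II pair. Deviations of same-numbered libraries from their group means correlated at r = -0.019 over 9215 genes. Since the IL-33 libraries differed by about the sampling noise, this value cannot show if same-numbered samples were paired. With a replicate block added to the setting of 2 IL-33 replicates the count was 0 (1877 at an unadjusted p under 0.05). It was also 0 at a pseudocount of 0.1, at either other filter, after rescaling and without either IL-33 library, where 515 to 2693 genes had an unadjusted p under 0.05. Without an Ang II library no residual degree of freedom is left and no count was made. Depth is not known directly, which limits what the traces under 1 FPKM can show.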
